A study of Mus musculus with 3 samples.

Results

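A set of 944 macrophage barcodes was described in a single-cell RNA library of the cauda epididymis of a Tsc22d3-knockout mouse. They were 944 of 3525 barcodes that passed the filter on cells, or 26.8% (exact binomial 95% interval 25.3 to 28.3%), and carried 17032531 unique molecular identifiers (UMIs, each standing for 1 captured transcript molecule). The filter asked for 500 or more UMIs, 200 or more genes and at most 20% of UMIs from mitochondrially encoded genes. Members were then chosen by readouts of the same cells. Adgre1, Csf1r, Timd4, Vsig4 and Selp together made up 0.15% or more of their UMIs with 3 or more of these 5 genes detected, and the B lymphocyte genes Cd79a, Cd79b and Ms4a1 stayed under 0.05%. Values of these 8 genes, and of all genes that move with them in the same cells, are therefore a description and were not tested.

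Large peritoneal macrophages are the main resident macrophages of the peritoneal cavity of mice. They depend on the transcription factor GATA6, which peritoneal signals such as retinoic acid induce, and on signals through the colony-stimulating factor 1 receptor. They carry high levels of F4/80 (encoded by Adgre1) and the phosphatidylserine receptor TIM-4 (Timd4), and they are known for clearing dead cells and for clotting around microbes in peritoneal fluid. Another population, the small peritoneal macrophages, derives from monocytes and presents antigen on MHC class II.

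The series held 3 mouse libraries made with Chromium 3′ v3.1 chemistry, with 1 library in each group, so no spread between animals exists. The KO cauda library, which holds the members, was a percutaneous aspirate of the cauda of a Tsc22d3 knockout (line goGermline) and is labelled epididymal cells. The chimera cauda library was taken likewise from a Tsc22d3-knockout chimera that had received mouse iPSCs, or induced pluripotent stem cells (line Pax7-nGFP iPS x goGermline), and is labelled spermatids and spermatozoa. For the KO testis library, cells labelled testicular were isolated by a published protocol from an adult Tsc22d3 knockout (goGermline, Ozgene). Every group thus carried the Tsc22d3 knockout in its host cells, and no library of an intact mouse was used. Tsc22d3 itself, a glucocorticoid-induced leucine zipper gene, was still counted at 6.52 CPM (5.36 to 7.85) in the members and at 14.9 CPM (12.8 to 17.1) in testis macrophages; whether the deposited 3′ counts cover the deleted stretch is not given in the sources used here.

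Levels are CPM, the summed UMIs of a gene in a class of barcodes per 1000000 UMIs of that class. Brackets after a level hold its exact Poisson 95% interval, and the range after a fold is its exact conditional binomial 95% interval. Both cover counting error only. With 1 library in each group no test was run, and a difference was named by its size. The members had a median of 17479 UMIs (892 to 56101), 3721 genes and 4.37% mitochondrially encoded UMIs. The other 2581 barcodes of the same library had a median of 8177 UMIs, 2248 genes and 6.79% mitochondrially encoded UMIs. Of those other barcodes, 1892 were B barcodes (all 3 B genes detected and at 0.15% or more of UMIs, with the 5 macrophage markers under 0.05%). They held 80.9% of the UMIs of the other barcodes but supplied only 6.35% of their Lyz2 UMIs and 8.97% of their UMIs of the Gata6 program, a list of 20 genes described below. Of the UMIs of that program in the other barcodes, 55.2% came from 80 other myeloid barcodes (defined where they are compared) and 24.2% from 33 barcodes that passed the macrophage part of the rule but held B genes at 0.05% or more. For macrophage genes, a fold against the other barcodes is thus set against a class that itself holds macrophages, and levels in B barcodes alone are given for some genes.

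Before any comparison, the 2 cauda libraries were found to share barcodes. All 3937 barcodes of the KO cauda matrix were listed in the chimera cauda matrix, where they held a median of 86 UMIs, against 1 UMI for the other barcodes of that matrix. The number that passed the filter in both matrices was 119, which is 64.7% of the 184 passing chimera barcodes and 3.38% of the 3525 passing KO cauda barcodes. Among them, 56 barcodes passed the macrophage rule in both matrices. Each of the 56 held more UMIs in the chimera matrix, with a median of 4957 UMIs in the KO cauda matrix and 30374 UMIs in the chimera matrix. Each of the 56 was also most alike to its own barcode in the other matrix, with a median correlation over 1000 genes of 0.51, against -0.01 with the other barcodes. Presence or absence of Vsig4 was the same in both matrices for 49 of the 56. A further 47 were B barcodes in both matrices, and 0 were macrophages in one matrix and B barcodes in the other. In the same 56 barcodes, the epididymal gene Crisp1 stood at 3772 CPM in the KO cauda matrix and 114 CPM in the chimera matrix, and the sperm tail gene Odf1 at 14.6 CPM in the KO cauda matrix and 68.7 CPM in the chimera matrix. Lyz2 (lysozyme 2) stood at 39584 CPM in the KO cauda matrix and 37812 CPM in the chimera matrix. Of the 67 chimera barcodes that passed the macrophage rule, 63 were listed among the KO cauda barcodes. The 2 matrices were therefore not taken as independent libraries for these cells, and how the barcodes came to be shared was not tested. Without the 57 members that held 500 or more chimera UMIs, 887 members remained. The barcodes of these 887 still held 147888 UMIs in the chimera matrix, with Lyz2 at 41031 CPM. In B barcodes under 500 chimera UMIs, Lyz2 stood at 2403 CPM there. Leaving out the 57 thus does not remove the sharing. Barcodes with 500 or more chimera UMIs are called shared below. The count of genes past 4-fold in each comparison is given with and without these shared barcodes. Of 48 counts over gene lists, 2 differed without them against the other barcodes (by at most 2 genes), 0 against other myeloid barcodes and 1 against testis macrophages (by 1 gene).

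**Figure D1:**
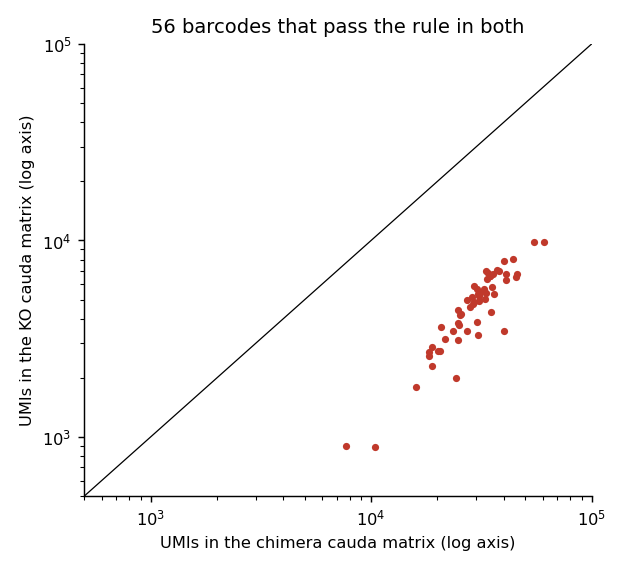
UMIs of the 56 barcodes that passed the macrophage rule in both cauda matrices, with the KO cauda matrix on the vertical axis and the chimera cauda matrix on the horizontal axis (both log scales); the line marks equal counts. All 56 points lie below the line, with medians of 4957 UMIs in the KO cauda matrix and 30374 UMIs in the chimera matrix.

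The rule fixes that members and B barcodes differ in its 8 genes, and their values in members are given as a description. The 5 markers made up a median of 0.283% of a member's UMIs (0.151 to 0.750%). All 5 were detected in 445 members, 4 in 460 and 3 in 39. Adgre1 stood at 689.7 CPM (677 to 702) in members and 37.2 CPM in the other barcodes, and Csf1r at 609 CPM (597 to 621) in members and 38.3 CPM in the other barcodes. Timd4 stood at 556 CPM (545 to 567) in members and 21.8 CPM in the other barcodes. Selp, the adhesion molecule P-selectin, stood at 530.0 CPM (519 to 541) in members and 31.6 CPM in the other barcodes. Adgre1, Csf1r, Timd4 and Selp were each found in 906 to 941 members. Vsig4, a receptor for complement fragments, stood at 689 CPM (677 to 702) in members and 18.4 CPM in the other barcodes, yet was found in 471 members only (49.9%). The 3 B genes were at 0 UMIs in 530 members. At the limit of the rule, 77 members held 0.15 to 0.18% of marker UMIs and 42 barcodes just outside held 0.12 to 0.15%. Lyz2 stood at 41127 CPM in the 77 and 45887 CPM in the 42, and Gata6 at 125 CPM in the 77 and 157 CPM in the 42.

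**Figure D2:**
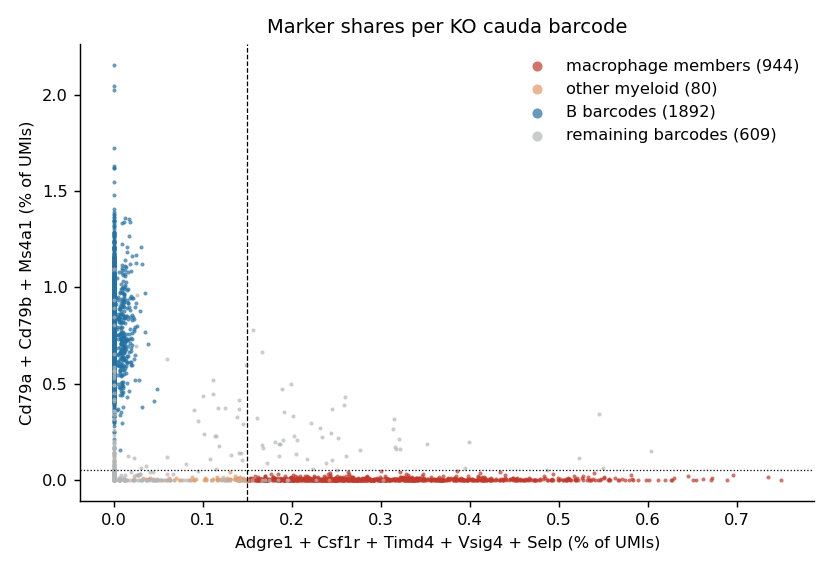
Share of UMIs from the 5 macrophage markers (horizontal, percent) and from the 3 B genes (vertical, percent) for each of the 3525 passing KO cauda barcodes; the dashed and dotted lines mark 0.15% and 0.05%. The 944 members fill the strip at the lower right, and the 1892 B barcodes stand along the vertical axis.

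Gata6, which the rule did not use, stood at 149 CPM (143 to 155) in members, against 11.9 CPM (10.5 to 13.4) in the other barcodes, 0.496 CPM (0.227 to 0.941) in B barcodes and 1.09 CPM (0.596 to 1.83) in macrophages of the testis. All 20 of the 20 genes listed for the Gata6 program of large peritoneal macrophages were at least 2-fold higher in members than in the other barcodes, with a median log2 ratio of 3.84, against -0.09 over all genes. Over all 8436 genes at 10 CPM or more in either class, 17.3% were at least 2-fold higher and 15.3% at least 2-fold lower. The 20 genes summed to 19302 CPM in members and 1393 CPM in the other barcodes. Each member held them at a median of 1.91% of its UMIs (0.110 to 5.50%), with a median of 17 of the 20 detected. Since members were picked by macrophage genes, such counts describe the cells and are not a test of the program.

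Several of these genes encode secreted proteins. Prg4, which encodes the lubricant proteoglycan 4 and lies on chromosome 1, 150449412 to 150466165 (RefSeq gene, GRCm38.p6), stood at 6414 CPM (6377 to 6453) in members and 494 CPM (485 to 503) in the other barcodes (12.99-fold, 12.7 to 13.2). After each barcode was thinned to 1000 UMIs, Prg4 had a UMI in 98.5% of 942 members and in 5.04% of 1886 B barcodes. Coagulation factor V (F5) stood at 1124 CPM (1108 to 1139.5) in members and 86.5 CPM (82.7 to 90.4) in the other barcodes (12.99-fold, 12.4 to 13.6). Coagulation factor X (F10) stood at 615 CPM (604 to 627) in members and 42.8 CPM (40.1 to 45.6) in the other barcodes (14.4-fold, 13.5 to 15.4). The acute-phase protein gene Saa3 stood at 2355 CPM (2332 to 2378) in members and 153 CPM (148 to 158) in the other barcodes (15.4-fold, 14.9 to 15.9). Tgfb2, a growth factor that the same list holds, stood at 802 CPM (789 to 816) in members and 53.7 CPM (50.7 to 56.8) in the other barcodes (14.9-fold, 14.1 to 15.9).

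Enzymes and surface proteins of the list follow. Alox15, a lipoxygenase gene on chromosome 11, 70344152 to 70352031, stood at 2457 CPM (2434 to 2481) in members and 161 CPM (156 to 166) in the other barcodes (15.3-fold, 14.8 to 15.8). Icam2, an adhesion molecule that marks these cells in flow cytometry, stood at 706 CPM (693 to 719) in members and 71.4 CPM (67.9 to 74.9) in the other barcodes (9.89-fold, 9.39 to 10.4). Itga6 stood at 1144 CPM in members and 87.8 CPM in the other barcodes, Ednrb at 1243 CPM in members and 87.0 CPM in the other barcodes, and Cd5l, a secreted scavenger-receptor protein, at 501 CPM in members and 31.9 CPM in the other barcodes. The smallest ratio of the list belonged to Nt5e (CD73, which makes adenosine from AMP), at 50.9 CPM (47.6 to 54.4) in members and 9.36 CPM (8.14 to 10.7) in the other barcodes (5.44-fold, 4.67 to 6.35). Rarb, a retinoic acid receptor, stood at 15.1 CPM (13.3 to 17.1) in members and 1.78 CPM (1.27 to 2.43) in the other barcodes.

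**Figure D3:**
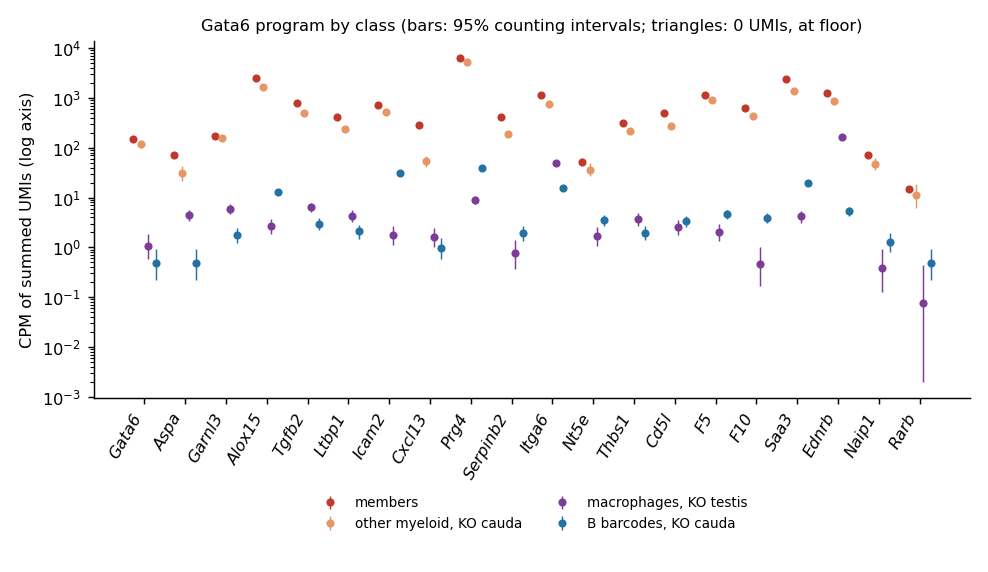
Level of each gene of the Gata6 program (CPM of summed UMIs, log axis) in members, other myeloid barcodes of the KO cauda, macrophages of the KO testis and B barcodes of the KO cauda; bars are 95% counting intervals. Members and other myeloid barcodes lie within 2-fold for all genes but Aspa, Cxcl13 and Serpinb2, which were higher in members, and testis macrophages and B barcodes lie far lower for nearly every gene, as for Prg4 at 6414 CPM in members, 5267 CPM in other myeloid barcodes, 8.88 CPM in testis macrophages and 39.5 CPM in B barcodes.

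Of the lists of markers of other resident macrophages, some genes were at or near 0 in members and others were not. Of 6 Kupffer cell markers, Clec4f and Cd207 had 0 UMIs in the members, Spic stood at 1.29 CPM and Id3 at 6.99 CPM, while Cd5l and the rule's own Vsig4 were higher in members than in the other barcodes. The 6 alveolar macrophage markers summed to 6.81 CPM in members, with Car4 and Ear2 at 0 UMIs. The 6 microglia markers summed to 200.4 CPM in members and 73.2 CPM in the other barcodes, with Sall1 and Siglech at 0 UMIs in members. The 6 markers of spleen red pulp macrophages summed to 95.6 CPM in members and 19.5 CPM in the other barcodes. Hmox1, the heme-degrading enzyme of that list, stood at 90.7 CPM (86.2 to 95.3) in members and 10.4 CPM (9.10 to 11.8) in the other barcodes (8.73-fold, 7.61 to 10.1), while the iron exporter Slc40a1 stood at 0.176 CPM (0.0363 to 0.515) in members and Treml4 had 0 UMIs.

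Among transcription factors of macrophages, 11 of the 19 at 10 CPM or more were at least 2-fold higher in members than in the other barcodes and 2 were at least 2-fold lower. Over all genes 17.3% were higher and 15.3% lower. Cebpb stood at 692 CPM (679 to 704) in members and 82.6 CPM (78.8 to 86.4) in the other barcodes (8.38-fold, 7.98 to 8.81). Spi1, which encodes PU.1 and is also used by B lymphocytes, differed less, at 322 CPM (314 to 331) in members and 109 CPM (105 to 114) in the other barcodes (2.94-fold, 2.81 to 3.09). Klf2 was nearly equal at 1267 CPM in members and 1209 CPM in the other barcodes. The 2 lower factors were Bhlhe41, at 2.70 CPM in members and 129 CPM in the other barcodes, and Id3, at 6.99 CPM in members and 90.1 CPM in the other barcodes. Bhlhe40, a paralog of Bhlhe41 that large peritoneal macrophages need for proliferation, went the other way, with 109 CPM (104 to 114) in members and 17.7 CPM (15.96 to 19.5) in the other barcodes.

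Over all genes at 50 CPM or more in either class, 396 of 3160 (12.5%) were at least 4-fold higher in members than in the other barcodes and 203 (6.42%) at least 4-fold lower. These counts include the 5 markers and the 3 B genes. Without the barcodes shared with the chimera matrix the counts were 397 higher and 201 lower. Mitochondrially encoded and ribosomal protein genes took 26.6% of the members' UMIs and 41.4% of those of the other barcodes. With totals taken without these genes all log2 ratios moved by -0.33, and 371 genes were higher and 360 lower. With the B barcodes left out of the comparison, 9 genes were at least 4-fold higher and 282 lower; the barcodes compared then hold a larger share of myeloid cells. Of the 25 genes named next, all kept their direction there, all moved by more than 1.5 times, and 9 came under 4-fold. The list counts that follow moved as well in that setting. The number of higher genes there was 19 for the Gata6 program (20 with the B barcodes), 11 for complement (13) and 10 for lysosome (17). It was 6 for lipids (13), 5 for transcription factors (11), 3 for Fc receptors (6) and 0 for cell cycle genes (4). These lists are examples, since 36 of 48 list counts changed in that setting. The share of all genes past 2-fold was not counted there, so these counts have no such share beside them.

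The 15 higher genes with the largest ratios were Cxcl2, Cxcl13, Arg1, Serpinb2, Aspa, Msr1, Igf1, Klra2, Fabp7, C1qb, Alox5, C1qc, C1qa, Thbs1 and Plxdc2. Cxcl2, a chemokine that draws neutrophils, stood at 54.4 CPM (50.9 to 58.0) in members and 0.579 CPM (0.309 to 0.991) in the other barcodes (93.8-fold, 54.6 to 177). Its ratio was 17.9-fold without the B barcodes, 2.80-fold with the markers at 0.30% or more, and 226-fold with them at 0.10% or more. Few members carried its level, since Cxcl2 had a UMI in 73 of 898 members thinned to 5000 UMIs. Cxcl13 had a UMI in 251 of these 898 and Arg1 in 169. Cxcl13, a chemokine that draws B lymphocytes and that peritoneal macrophages are known to make, stood at 282 CPM (274 to 290.0) in members and 8.02 CPM (6.89 to 9.29) in the other barcodes (35.1-fold, 30.3 to 41.0). Arg1, the arginine-degrading enzyme arginase 1, stood at 86.0 CPM (81.7 to 90.5) in members and 4.15 CPM (3.35 to 5.08) in the other barcodes (20.7-fold, 16.8 to 25.9). Aspa (aspartoacylase) stood at 71.5 CPM (67.5 to 75.6) in members and 3.70 CPM (2.95 to 4.59) in the other barcodes (19.3-fold, 15.5 to 24.4). Fabp7, a fatty-acid-binding protein gene, stood at 174 CPM (168 to 181) in members and 10.03 CPM (8.76 to 11.4) in the other barcodes (17.4-fold). Klra2 stood at 60.1 CPM (56.4 to 63.9) in members and 3.25 CPM (2.55 to 4.09) in the other barcodes (18.5-fold, 14.5 to 23.7). Plxdc2 stood at 594 CPM (582 to 606) in members and 37.1 CPM (34.7 to 39.7) in the other barcodes. In B barcodes the C1q genes stood at 14.1 to 17.1 CPM, and the other 12 of the 15 at 0 to 2.15 CPM.

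The 10 lower genes with the largest ratios were Kctd14, Ebf1, Pax5, Sox5, Jchain, Cacna1e, Tnfrsf13c, Plac8, Cd2 and H2-Oa. Ebf1 and Pax5 are the transcription factors that establish the B lineage. Ebf1 stood at 3.70 CPM (2.84 to 4.73) in members and 1418 CPM (1403 to 1434) in the other barcodes. Pax5 stood at 0.528 CPM (0.242 to 1.003) in members and 178 CPM (172 to 183) in the other barcodes. Plac8 stood at 5.81 CPM (4.72 to 7.08) in members and 1356 CPM (1340.4 to 1371) in the other barcodes (233-fold, 192 to 287, lower in members). Jchain, which joins antibodies into polymers, had 9 UMIs in all members and 2984 UMIs in the other barcodes.

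**Figure D4:**
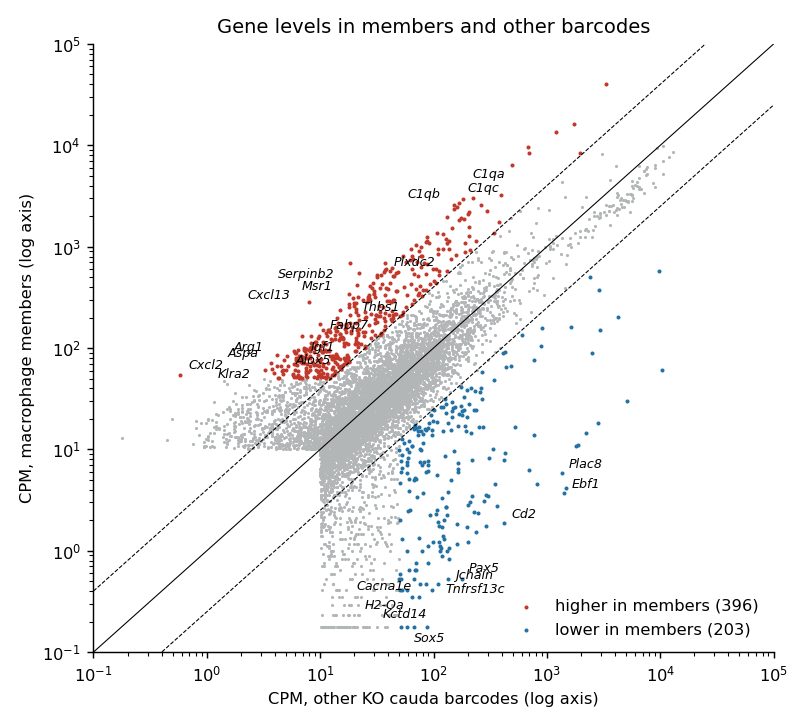
Level of each of 8436 genes (CPM, both axes log) in members, vertical, and in the other KO cauda barcodes, horizontal; dashed lines mark 4-fold. The 396 genes past 4-fold above the diagonal include the C1q genes and Cxcl13, and the 203 below it include Ebf1, Pax5 and Plac8; a gene with under 3 UMIs is drawn at the level of 3 UMIs.

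Genes for taking up dead cells were mostly higher in members than in the other barcodes, but not than in other macrophages. Of 13 at 10 CPM or more, 11 were at least 2-fold higher than in the other barcodes and 0 at least 2-fold lower. Over all genes 17.3% were higher and 15.3% lower. Against the other myeloid barcodes, 2 of 14 (Msr1 and Marco) were higher, 1 (Axl) was lower and 11 were between, with 1.62% higher and 2.39% lower over all genes. Against testis macrophages, 4 of 16 were higher and 7 lower, with 8.31% higher and 17.1% lower over all genes. Tyro3 and Stab2 had 0 UMIs in members. Mertk, a receptor kinase that binds dead cells through bridging proteins, stood at 71.7 CPM (67.8 to 75.9) in members and 6.95 CPM (5.91 to 8.13) in the other barcodes (10.3-fold, 8.73 to 12.3). Pros1, which encodes the bridging protein S, stood at 276 CPM (268 to 284) in members and 19.9 CPM (18.1 to 21.8) in the other barcodes (13.9-fold, 12.6 to 15.3), while the related bridging gene Gas6 stood at 2.52 CPM (1.83 to 3.40) in members. The scavenger receptor gene Msr1 stood at 344 CPM (335 to 353) in members and 17.9 CPM (16.2 to 19.8) in the other barcodes (19.2-fold, 17.4 to 21.3). Marco, another scavenger receptor gene, stood at 47.2 CPM (44.0 to 50.6) in members and 1.43 CPM (0.976 to 2.01) in the other barcodes (33.1-fold, 23.3 to 48.7). Few members carried that level, since Marco had a UMI in 74 of 898 members thinned to 5000 UMIs. Lrp1, the receptor for several ligands on dying cells, stood at 519 CPM (508 to 529.9) in members and 45.2 CPM (42.5 to 48.1) in the other barcodes (11.5-fold, 10.7 to 12.3).

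All 6 Fc receptor genes were at least 2-fold higher in members, against 17.3% over all genes. Fcer1g, the signalling chain, stood at 1135 CPM (1119 to 1151) in members and 136 CPM (131 to 141) in the other barcodes (8.35-fold, 8.04 to 8.68). Fcgr3 stood at 817 CPM (804 to 831) in members and 64.3 CPM (61.0 to 67.7) in the other barcodes (12.7-fold, 12.04 to 13.4). Fcgr4, another activating receptor gene, stood at 79.0 CPM (74.9 to 83.4) in members and 8.11 CPM (6.98 to 9.38) in the other barcodes (9.74-fold, 8.34 to 11.4). Fcgr2b, the inhibitory receptor that B lymphocytes also carry, had the smallest ratio, with 199 CPM (193 to 206) in members and 88.7 CPM (84.8 to 92.7) in the other barcodes (2.25-fold, 2.12 to 2.38).

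Complement genes were higher throughout. All 13 of the 13 at 10 CPM or more were at least 2-fold higher in members, against 17.3% over all genes. Their median log2 ratio was 3.63, and the list summed to 16358 CPM in members and 1222 CPM in the other barcodes. The 3 chains of C1q, which starts the classical pathway, lie side by side on chromosome 4. C1qa stood at 2930.3 CPM (2905 to 2956) in members and 182 CPM (176 to 188) in the other barcodes, C1qb at 2551 CPM (2527 to 2575) in members and 153 CPM (148 to 158) in the other barcodes, and C1qc at 2715 CPM (2690.0 to 2739.6) in members and 167 CPM (162 to 173) in the other barcodes. C4b stood at 3016 CPM (2990.0 to 3042) in members and 223 CPM (217 to 229) in the other barcodes (13.5-fold, 13.1 to 13.9). Cfp (properdin, which stabilises the alternative pathway) stood at 1822 CPM (1802 to 1843) in members and 168 CPM (163 to 174) in the other barcodes (10.8-fold, 10.5 to 11.2). C3, the component on which the pathways meet, stood at 54.5 CPM (51.1 to 58.2) in members and 19.2 CPM (17.4 to 21.1) in the other barcodes. Of the receptors, Itgam stood at 1086 CPM in members and 91.3 CPM in the other barcodes, and Itgax (CD11c) had 0 UMIs in the members, which allows up to 0.176 CPM.

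Promoter letters were read for genes past the 4-fold rule, since PU.1 (Spi1) and GATA6 bind known short motifs. The windows come from RefSeq promoters on GRCm38.p6, each holding 250 bases before to 50 after a gene's start; 301 of the 396 higher genes and 142 of the 203 lower genes matched one. GAGGAAGT, a PU.1 motif, was found on either strand in 4.65% of the 301, in 3.52% of the 142, in 3.62% of the 6719 promoters of genes at 10 CPM or more in either class and in 3.28% of all 27025 promoters. The GATA factor motif AGATAA was found on either strand in 7.64% of the 301, in 10.6% of the 142, in 5.998% of the 6719 and in 11.4% of all promoters, and in 2 of the 14 promoters matched for the 20 genes of the Gata6 program. The motifs and their reverse complements share no run of 3 letters, so a match of one is never part of the other. Parts of 5 promoters are shown because their genes are described here. Each runs 5′ to 3′ along the gene's strand with the motif in capitals, as written or as its reverse complement. The strand named for each is that of the gene and not of the motif.
C1qc, PU.1 motif, minus strand, chr4:136893056-136893155: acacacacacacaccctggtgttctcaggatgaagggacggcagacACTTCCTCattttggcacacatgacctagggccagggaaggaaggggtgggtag
Fcgr4, PU.1 motif, plus strand, chr1:171018826-171018925: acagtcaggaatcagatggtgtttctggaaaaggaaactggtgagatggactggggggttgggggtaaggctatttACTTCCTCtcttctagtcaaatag
Pf4, PU.1 motif, plus strand, chr5:90772335-90772434: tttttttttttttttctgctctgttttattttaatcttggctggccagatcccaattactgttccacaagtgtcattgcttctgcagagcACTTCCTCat
Ptgs1, PU.1 motif, plus strand, chr2:36230326-36230425: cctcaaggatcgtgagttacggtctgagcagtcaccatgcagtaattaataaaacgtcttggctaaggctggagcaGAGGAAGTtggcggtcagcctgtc
Saa3, GATA motif, minus strand, chr7:46715758-46715857: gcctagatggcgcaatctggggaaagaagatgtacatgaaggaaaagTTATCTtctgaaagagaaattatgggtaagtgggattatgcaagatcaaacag
A match is a run of letters and was not read as a binding site.

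Of 12 clotting genes at 10 CPM or more, 9 were at least 2-fold higher in members and 0 at least 2-fold lower. Over all genes 17.3% were higher and 15.3% lower. The factors of the prothrombin-activating step, F5 and F10, are given above, and F7 stood at 96.9 CPM (92.3 to 102) in members and 7.58 CPM (6.48 to 8.81) in the other barcodes (12.8-fold, 10.9 to 15.1). F3 (tissue factor), the cofactor of F7, stood at 0.528 CPM (0.242 to 1.003) in members. Serpinb2, an inhibitor of plasminogen activators, stood at 416 CPM (407 to 426) in members and 21.4 CPM (19.5 to 23.4) in the other barcodes (19.5-fold, 17.8 to 21.4). Plau, one of the activators it inhibits, stood at 8.87 CPM (7.51 to 10.4) in members and 13.3 CPM (11.9 to 14.9) in the other barcodes. Thbs1 (thrombospondin 1) stood at 311 CPM (302 to 319) in members and 19.4 CPM (17.6 to 21.3) in the other barcodes (16.02-fold, 14.5 to 17.7).

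The list of prostaglandin, leukotriene and lipoxygenase genes had 14 at 10 CPM or more. Of these, 11 were at least 2-fold higher in members than in the other barcodes and 0 lower, against 17.3% and 15.3% over all genes. The 11 include the receptor genes Ptger4 and Cysltr1 as well as enzymes. On the leukotriene side, Alox5 stood at 82.6 CPM (78.3 to 87.0) in members and 5.08 CPM (4.19 to 6.105) in the other barcodes (16.3-fold, 13.4 to 19.9), its helper Alox5ap at 1341 CPM (1324 to 1359) in members and 121 CPM (117 to 126) in the other barcodes (11.1-fold, 10.6 to 11.5), and Ltc4s, which makes leukotriene C4, at 911 CPM (897 to 925) in members and 75.1 CPM (71.6 to 78.8) in the other barcodes (12.1-fold, 11.5 to 12.8). On the prostaglandin side, Ptgs1 (COX-1) stood at 215 CPM (208 to 222) in members and 46.3 CPM (43.5 to 49.2) in the other barcodes (4.65-fold, 4.34 to 4.98) and prostacyclin synthase, Ptgis, at 389 CPM (379.7 to 399) in members and 28.4 CPM (26.2 to 30.7) in the other barcodes (13.7-fold, 12.6 to 14.9). The inducible Ptgs2 (COX-2) stood at 1.70 CPM (1.14 to 2.45) in members, and Hpgds, which makes prostaglandin D2, at 2.35 CPM (1.68 to 3.20) in members and 6.15 CPM (5.17 to 7.27) in the other barcodes.

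Of 10 iron genes at 10 CPM or more, 7 were at least 2-fold higher in members and 1, the transferrin receptor Tfrc, at least 2-fold lower. Over all genes 17.3% were higher and 15.3% lower. Ftl1, the ferritin light chain, stood at 8454 CPM (8410.0 to 8497) in members and 1946 CPM (1928 to 1964) in the other barcodes (4.34-fold, 4.30 to 4.39). Trf (transferrin) stood at 1539.9 CPM (1521 to 1559) in members and 147 CPM (142 to 152) in the other barcodes (10.5-fold, 10.1 to 10.9). Slc11a1, an iron and manganese transporter of the phagosome, stood at 130.04 CPM (125 to 136) in members and 9.76 CPM (8.51 to 11.1) in the other barcodes (13.3-fold, 11.6 to 15.4). The exporter Slc40a1 had 3 UMIs among all members.

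For lipids, 13 of 14 genes at 10 CPM or more were at least 2-fold higher in members, against 17.3% over all genes. Apoe stood at 16062 CPM (16002 to 16122) in members and 1722 CPM (1704 to 1739) in the other barcodes (9.33-fold, 9.23 to 9.43). Lpl (lipoprotein lipase) stood at 581 CPM (570.0 to 593) in members and 41.6 CPM (39.0 to 44.3) in the other barcodes (13.98-fold, 13.1 to 14.97). Pltp, which transfers phospholipids between lipoproteins, stood at 938 CPM (924 to 953) in members and 109 CPM (105 to 114) in the other barcodes (8.59-fold, 8.23 to 8.96). Pparg, a lipid-sensing factor that alveolar macrophages need, stood at 0.528 CPM (0.242 to 1.003) in members.

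Of 19 lysosomal genes, 17 were at least 2-fold higher in members, against 17.3% over all genes. Lyz2 (lysozyme 2) stood at 39888 CPM (39793 to 39983) in members and 3292 CPM (3268 to 3316) in the other barcodes (12.1-fold, 12.03 to 12.2), and in B barcodes at 258 CPM (251 to 266). Ctsd (cathepsin D) stood at 2214 CPM (2192 to 2237) in members and 205 CPM (199 to 211) in the other barcodes (10.8-fold, 10.5 to 11.1). Grn (progranulin) stood at 2599 CPM (2575 to 2623) in members and 261 CPM (254 to 268) in the other barcodes (9.96-fold, 9.69 to 10.2). Ctsc (cathepsin C) differed by less than 2-fold, at 158 CPM in members and 145 CPM in the other barcodes.

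Of 16 adhesion and matrix genes, 11 were at least 2-fold higher in members and 1 lower, against 17.3% and 15.3% over all genes. Fn1 (fibronectin, chromosome 1, 71585520 to 71653200) stood at 9556 CPM (9509 to 9602) in members and 678 CPM (668 to 689) in the other barcodes (14.1-fold, 13.9 to 14.3). Emilin2, a matrix glycoprotein gene, stood at 996 CPM (981 to 1011) in members and 77.6 CPM (74.0 to 81.4) in the other barcodes (12.8-fold, 12.2 to 13.5). Itgb2, the partner chain of Itgam, stood at 1185 CPM (1169 to 1202) in members and 129.8 CPM (125 to 135) in the other barcodes (9.13-fold, 8.78 to 9.495). The lymphocyte integrin Itgal was the 1 lower gene, at 2.76 CPM (2.03 to 3.67) in members and 35.7 CPM (33.2 to 38.2) in the other barcodes (12.9-fold, 9.63 to 17.7, lower in members). Itga4, which both classes carried, stood at 215 CPM in members and 235 CPM in the other barcodes.

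All 9 chemokine genes at 10 CPM or more were at least 2-fold higher in members, against 17.3% over all genes. Pf4 (platelet factor 4) stood at 1959.6 CPM (1939 to 1981) in members and 132 CPM (127 to 136) in the other barcodes (14.9-fold, 14.3 to 15.5); Ppbp and 3 more of the 7 platelet markers (Gp9, Gp1bb and Treml1) had 0 UMIs in members. Ccl6 stood at 1075 CPM (1059.7 to 1091) in members and 132 CPM (127 to 137) in the other barcodes (8.16-fold, 7.85 to 8.48), and Ccl24 at 1029.9 CPM (1015 to 1045) in members and 70.4 CPM (67.0 to 74.0) in the other barcodes (14.6-fold, 13.9 to 15.4). Ccl2, which draws monocytes, stood at 4.05 CPM (3.15 to 5.13) in members and 0.669 CPM (0.374 to 1.10) in the other barcodes, and Ccl4 at 8.87 CPM (7.51 to 10.4) in members and 1.43 CPM (0.976 to 2.01) in the other barcodes. Of the cytokines, Il10, Il12b, Lif and Areg had 0 UMIs in members, Il1b stood at 1.12 CPM (0.672 to 1.74), Tnf at 0.939 CPM (0.537 to 1.53) and Il6 at 1.64 CPM (1.09 to 2.38). Igf1 stood at 131 CPM (126 to 137) in members and 6.91 CPM (5.86 to 8.09) in the other barcodes (19.0-fold, 16.1 to 22.5), and Il1a at 23.1 CPM (20.9 to 25.5) in members and 1.38 CPM (0.939 to 1.96) in the other barcodes (16.7-fold, 11.6 to 24.98).

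Of 17 sensors of microbes, 13 were at least 2-fold higher in members, against 17.3% over all genes. Cd14, the co-receptor for lipopolysaccharide, stood at 320.4 CPM (312 to 329) in members and 26.3 CPM (24.2 to 28.5) in the other barcodes (12.2-fold, 11.2 to 13.3). Clec4e, which binds mycobacterial glycolipids, stood at 88.5 CPM (84.1 to 93.1) in members and 6.11 CPM (5.13 to 7.22) in the other barcodes (14.5-fold, 12.2 to 17.4). Tlr13, a sensor of bacterial ribosomal RNA, stood at 76.3 CPM (72.2 to 80.5) in members and 4.77 CPM (3.91 to 5.76) in the other barcodes (15.99-fold, 13.1 to 19.7). Naip1, a sensor of bacterial secretion-system proteins, stood at 70.2 CPM (66.3 to 74.3) in members and 6.02 CPM (5.05 to 7.12) in the other barcodes (11.7-fold, 9.76 to 14.05), while Nlrc4, its partner, stood at 10.5 CPM (8.97 to 12.1) in members and 17.6 CPM (15.9 to 19.4) in the other barcodes. Tlr9 had 0 UMIs in members. Naip1, C4b, Klra2, Lyz1 and Lyz2 have close relatives in the genome, and how reads shared by copies were counted is not given in the sources used here.

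Genes of MHC class II presentation were lower. Of 10, 9 were at least 2-fold lower in members and 0 higher, against 15.3% lower and 17.3% higher over all genes. Their median log2 ratio was -4.24, and the list summed to 1247 CPM in members and 19145 CPM in the other barcodes. Cd74, the invariant chain, stood at 577 CPM (566 to 589) in members and 9713 CPM (9672 to 9754) in the other barcodes (16.8-fold, 16.5 to 17.2, lower in members). H2-Aa stood at 202 CPM (195.04 to 209) in members and 4269.8 CPM (4243 to 4297) in the other barcodes (21.2-fold, 20.5 to 21.9, lower in members). Ciita, the transactivator of these genes, stood at 5.11 CPM (4.09 to 6.30) in members and 69.8 CPM (66.4 to 73.3) in the other barcodes (13.7-fold, 11.0 to 17.2, lower in members). B lymphocytes carry the same genes at high levels, and B barcodes supplied 90.5% of the list's UMIs in the other barcodes. At 1000 UMIs, a UMI of Cd74 was found in 29.5% of 942 members and in all 1886 B barcodes. By member, 830 held the list at under 0.25% of UMIs, 92 at 0.25 to 0.5%, 19 at 0.5 to 1% and 3 at 1% or more. Gata6 stood at 150 CPM in the 830, 144 CPM in the 92 and 152 CPM in the 19, so members of the first 3 strata carried it at like levels; the 3 highest held 96.1 CPM of Gata6 and 135 CPM of Ccr2.

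The list for small peritoneal and monocyte-derived macrophages had 9 genes at 10 CPM or more. Of these, 2 (Clec10a and Cd209a) were at least 2-fold higher in members than in the other barcodes. Another 5 (Ccr2, Irf4, Mgl2, Mrc1 and Plac8) were at least 2-fold lower. Over all genes the shares were 17.3% higher and 15.3% lower. Ccr2, the chemokine receptor of monocytes, stood at 7.57 CPM in members and 58.9 CPM (55.8 to 62.1) in the other barcodes (7.77-fold, 6.48 to 9.39, lower in members). Irf4, which small peritoneal macrophages need, stood at 17.7 CPM (15.7 to 19.8) in members and 38.0 CPM (35.5 to 40.6) in the other barcodes (2.15-fold, 1.88 to 2.46, lower in members). Retnla was nearly equal at 233 CPM (226 to 240.3) in members and 201 CPM (194.9 to 207) in the other barcodes. Mrc1 (mannose receptor) stood at 4.58 CPM (3.62 to 5.72) in members and 10.3 CPM (9.05 to 11.8) in the other barcodes. With totals without mitochondrially encoded and ribosomal protein genes the list counted 1 higher and 8 lower.

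Smaller groups are given beside the 17.3% higher and 15.3% lower over all 8436 genes. Of 11 genes for arginine enzymes and lectins of activated macrophages, 6 were at least 2-fold higher in members, Arg1 and Clec4d (14.1-fold) among them, and 3 lower, namely Ass1, Mrc1 and Mgl2; Nos2, the enzyme that makes nitric oxide, stood at 0.0587 CPM in members. Of 6 genes of extracellular nucleotides, 5 were higher, as for Entpd1 (CD39) at 73.2 CPM in members and 27.8 CPM in the other barcodes, and the adenosine receptor Adora2a was lower at 1.17 CPM in members and 31.1 CPM in the other barcodes. Of 8 genes of growth factor receptors and survival, 5 were higher, the rule's own Csf1r and Csf2ra (7.18-fold) among them, and Bcl2 was lower at 5.93 CPM in members and 163 CPM in the other barcodes. Of 7 interferon-response genes, 5 were higher, with Irf7 at 94.8 CPM (90.2 to 99.6) in members and 9.94 CPM (8.68 to 11.3) in the other barcodes. Of 17 genes of glucose and energy metabolism, 5 were higher and 2, the glucose carriers Slc2a1 and Slc2a3, were lower.

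Of 11 immediate early genes, which respond within minutes to many stimuli, 5 were at least 2-fold higher in members than in the other barcodes and 1 (Jund) lower. Fos stood at 15.2 CPM (13.4 to 17.2) in members and 9.32 CPM (8.10 to 10.7) in the other barcodes, and Jun at 45.9 CPM (42.8 to 49.2) in members and 38.2 CPM (35.7 to 40.9) in the other barcodes. Of 9 glucocorticoid-response genes, Zbtb16, Klf9 and Dusp1 were at least 2-fold higher, and Tsc22d3, Fkbp5 and Ddit4 at least 2-fold lower, against 17.3% higher and 15.3% lower over all genes. Klf9 stood at 146 CPM (140.3 to 152) in members and 28.8 CPM (26.7 to 31.2) in the other barcodes (5.06-fold, 4.64 to 5.53), and Fkbp5 at 4.99 CPM (3.99 to 6.17) in members and 22.6 CPM (20.7 to 24.7) in the other barcodes (4.54-fold, 3.60 to 5.78, lower in members).

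At least 4 of 8 division genes were detected in 21 of 944 members, or 2.22% (1.38 to 3.38%), against 4 of 1892 B barcodes, or 0.211% (0.0576 to 0.540%). The 21 had a median of 32049 UMIs, so depth moved with the count, and its part was not tested; thinned to 1000 UMIs, 2 or more of the 8 genes were detected in 11 of 942 members and 4 of 1886 B barcodes. At least 4 of the 8 were detected in 1 of 80 other myeloid barcodes, or 1.25% (0.0316 to 6.77%). In testis macrophages they were detected in 39 of 2103, or 1.85% (1.32 to 2.53%). Each interval treats cells of 1 library as independent, so the intervals were not used to compare the classes. Depth also differed, with a median of 17479 UMIs in members and 5798 UMIs in testis macrophages. Thinned to 1000 UMIs, 2 or more were detected in 0 of the 80 and in 30 of 2097 testis macrophages. Mki67 stood at 23.7 CPM (21.5 to 26.1) in members and 9.45 CPM (8.22 to 10.8) in the other barcodes (2.51-fold, 2.12 to 2.98), and Top2a at 30.8 CPM (28.2 to 33.6) in members and 16.7 CPM (15.1 to 18.5) in the other barcodes (1.84-fold, 1.61 to 2.11). By depth, the cell cycle list summed to 107 CPM in the 315 members with the fewest UMIs, 88.0 CPM in the next 315 and 477 CPM in the 314 with the most.

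Markers of other cell types in the members were as follows. The 10 B markers summed to 133 CPM in members, 23722 CPM in the other barcodes and 154 CPM in other myeloid barcodes, and all 10 were above 0. Cd79a, Cd79b and Ms4a1 are among the 10, and the rule itself limits them in members. The low sum in members is thus partly fixed by how members were chosen. The 10 markers of T or NK lymphocytes summed to 8.04 CPM in members and 212 CPM in the other barcodes, with Klrb1c and Ncr1 at 0 UMIs. The 10 epididymal epithelium markers summed to 1474 CPM in members and 3557 CPM in the other barcodes. Crisp1, a secretory protein of the epididymal epithelium, had a UMI in 73.0% of members and 75.6% of B barcodes thinned to 1000 UMIs, while the keratin Krt8 stood at 1.29 CPM in members. Crisp1 stood at 1237 CPM in members, 1189.7 CPM in other myeloid barcodes and 1388 CPM in B barcodes, a like level in 3 classes of cells that should lack it. The 8 sperm markers summed to 1.06 CPM in members and 7.49 CPM in the other barcodes. The 7 mesothelial markers summed to 1.76 CPM in members and 33.1 CPM in the other barcodes, with Wt1 and Bnc1 at 0 UMIs. Mast cell markers summed to 17.1 CPM in members and 50.5 CPM in the other barcodes, eosinophil markers to 1.12 CPM in members and 45.4 CPM in the other barcodes, and dendritic cell markers to 47.7 CPM in members and 50.1 CPM in the other barcodes. Monocyte markers summed to 79.7 CPM in members and 216 CPM in the other barcodes, and neutrophil markers to 131 CPM in members and 91.0 CPM in the other barcodes. Erythroid markers summed to 3.64 CPM in members and 7.44 CPM in the other barcodes, fibroblast markers to 2.70 CPM in members and 29.5 CPM in the other barcodes, and endothelial markers to 5.52 CPM in members and 117 CPM in the other barcodes. The part of such RNA in the levels above was not tested.

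The genes that varied most among members were Slpi, Retnla, Apoe, Apoc1 and Lyz2. In 898 members with 5000 or more UMIs, each thinned to 5000 UMIs, the ratio of variance to mean over members had a median of 1.05 over 7301 genes, the value of pure counting being near 1. It reached 115 for Slpi, a protease inhibitor gene, which averaged 62.8 UMIs per member, was found in 868 of the 898 and reached 193 UMIs at the 90th percentile and 448 UMIs in the highest member. Retnla had a ratio of 83.6, with a UMI in 74 of the 898 members and up to 199 UMIs in a member. Apoe had a ratio of 41.9, with 26 UMIs at the 10th percentile of members, 71 at the median and 164 at the 90th percentile. Saa3 had a ratio of 27.6, with a median of 6 and a highest count of 224 UMIs. Cxcl13 had a ratio of 22.4, with a UMI in 251 members and a highest count of 120. Marco, Pf4 and Cxcl2, also among the 12 genes with the highest ratios, stood at 15.2, 11.3 and 10.1.

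Saa3 and Cxcl13 belong to the Gata6 program, and Prg4 and Gata6 had lower ratios than both. Prg4 had a ratio of 5.53, with 18 UMIs at the 10th percentile, 31 at the median and 51 at the 90th percentile. Gata6 itself had 0 UMIs at the median and 2 at the 90th percentile, with a ratio of 1.24. In a count this low, a member with 0 UMIs of Gata6 is not shown to lack it.

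Vsig4 was an exception among the rule's genes. It had 0 UMIs in 477 of the 898 thinned members (53.1%), and the members with a UMI held 6.88 on average. Among the 305 genes with a mean of 2 or more UMIs per member, no other gene was at 0 in so many members; Cd74 came next at 29.6%. The counts fell into 477 members at 0, 57 at 1 or 2 and 364 at 3 or more. Between the 364 and the 477, 2 of 2708 genes at 50 CPM or more differed by 2-fold or more, namely Vsig4 itself and Apoc1, an apolipoprotein gene, at 18.7 CPM in the 364 and 82.2 CPM in the 477. Apoc1 had a UMI in only 48 of the 898 members and up to 86 UMIs in a member. Its difference can thus rest on few members. Cxcl13 stood at 302 CPM in the 364 and 199.6 CPM in the 477, and Cd74 at 440.1 CPM in the 364 and 673 CPM in the 477. The split uses Vsig4 counts of the same cells and is a description.

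**Figure D5:**
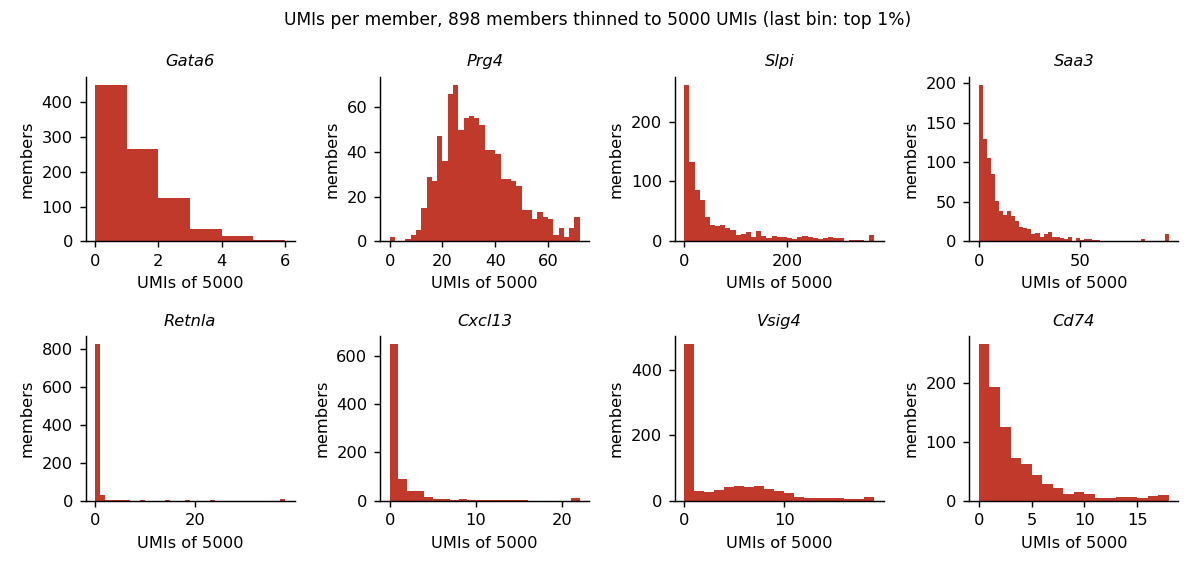
Number of members (vertical) by UMIs of each gene after thinning to 5000 UMIs (horizontal) in 898 members; the last bin of each panel gathers the top 1%. Prg4 forms a single hump around its median of 31 UMIs, Vsig4 has 477 members at 0 beside a second hump, and Retnla and Cxcl13 lie in few members.

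Correlations across the 898 thinned members are given as description, since the members share a library. The genes most alike in pattern were taken as those with the highest Pearson correlation of log-scaled counts. Cxcl2 went with Cxcl1, another neutrophil chemokine (0.69), and with Nfkbia (0.41), an early target of NF-kB. Cd74 went with H2-Aa (0.59). Apoe went with Wfdc17 (0.59) and Pltp (0.48) and against Fn1 (-0.55). Pf4 went with C1qb (0.38). For Slpi the highest was Lyz2 (0.32), and for Vsig4 and Gata6 no gene reached 0.2, with Pf4 highest for Vsig4 (0.16) and F5 for Gata6 (0.16).

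Other myeloid barcodes of the same library were close to the members. These 80 barcodes held Csf1r, Adgre1, Cd68, Tyrobp and Fcer1g at 0.3% or more of UMIs together, with 4 or more of the 5 detected, but fell outside the rule, and had a median of 15361 UMIs. Of 2753 genes, 4 (0.145%) were at least 4-fold higher in members and 27 (0.981%) at least 4-fold lower, and the counts were also 4 and 27 without the shared barcodes; at 2-fold and 10 CPM the shares were 1.62% higher and 2.39% lower of 7663 genes. All 20 genes of the Gata6 program were present in both classes, and 3 of them (Aspa, Cxcl13 and Serpinb2) were at least 2-fold higher in members. Arg1 stood at 86.0 CPM (81.7 to 90.5) in members and 9.52 CPM (4.92 to 16.6) in other myeloid barcodes (9.03-fold, 5.15 to 17.5), and Cxcl13 at 282 CPM (274 to 290.0) in members and 54.0 CPM (41.9 to 68.4) in other myeloid barcodes (5.22-fold, 4.11 to 6.74). The 4 higher genes were these, Cxcl2 and the rule's own Vsig4. Since the 80 are defined as falling outside the rule, macrophages just under its marker limit can be among them. The 42 barcodes just outside that limit, described above, held Lyz2 at 45887 CPM and Gata6 at 157 CPM. The part of such barcodes in the levels of the 80 was not tested. Averages over the 80 therefore need not describe a single cell type apart from the members.

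Of 13 genes of the small peritoneal list at 10 CPM or more, 11 were at least 2-fold lower in members and 0 higher. Irf4 was not among the 11 and differed by less than 2-fold here. All 9 MHC class II genes at 10 CPM or more were at least 2-fold lower. Ccr2 stood at 7.57 CPM in members and 494 CPM (456 to 534) in other myeloid barcodes (65.2-fold, 53.8 to 79.4, lower in members). H2-Eb1 stood at 89.2 CPM (84.8 to 93.8) in members and 1937 CPM (1861 to 2016) in other myeloid barcodes (21.7-fold, 20.4 to 23.2, lower in members). Retnla stood at 233 CPM (226 to 240.3) in members and 2736 CPM (2645 to 2829) in other myeloid barcodes (11.7-fold, 11.2 to 12.3, lower in members). Mrc1 stood at 4.58 CPM (3.62 to 5.72) in members and 114 CPM (96.4 to 135) in other myeloid barcodes, and the lectin gene Mgl2 at 7.57 CPM in members and 179 CPM (157 to 204) in other myeloid barcodes. Fcrls had 1 UMI in members and 71 UMIs in other myeloid barcodes. The 8 lower genes with the largest ratios were Ccr2, Fcrls, Ltb4r1, Plbd1, Slamf9, Mrc1, Mgl2 and H2-Eb1.

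Macrophages of the testis library, a large macrophage class of another tissue, were set beside the members. They were 2103 of 13662 passing testis barcodes, chosen by the same 5 myeloid genes as the other myeloid barcodes and by the same limit on B genes, with a median of 5798 UMIs. Tissue, preparation (an aspirate or isolated testis cells), animal and library cannot be told apart in this contrast. Of 3374 genes, 161 (4.77%) were at least 4-fold higher in members and 295 (8.74%) at least 4-fold lower, against 160 and 295 without the shared barcodes; at 2-fold and 10 CPM the shares were 8.31% higher and 17.1% lower of 8468 genes.

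All 20 genes of the Gata6 program were at least 2-fold higher in members than in testis macrophages, with a median log2 ratio of 7.46, against -0.27 over all genes. F10 stood at 615 CPM (604 to 627) in members and 0.467 CPM (0.171 to 1.02) in testis macrophages (1317-fold, 605 to 3588). Alox15 stood at 2457 CPM (2434 to 2481) in members and 2.73 CPM (1.90 to 3.79) in testis macrophages (901-fold, 648 to 1294). Padi4, which converts arginine in proteins to citrulline, stood at 239 CPM (232 to 246) in members and 0.312 CPM (0.0849 to 0.798) in testis macrophages, Fabp7 at 174 CPM (168 to 181) in members and 0.234 CPM (0.0482 to 0.683) in testis macrophages, and Vmn2r26 at 89.9 CPM (85.5 to 94.6) in members and 0.0779 CPM (0.00197 to 0.434) in testis macrophages. Crisp1, Spink8 and Igkc, also among the 8 with the largest ratios, are genes of epididymal epithelium and B lymphocytes. Fn1 stood at 9556 CPM in members and 16.4 CPM in testis macrophages. Of 17 adhesion genes, 13 were at least 2-fold higher in members and 4 (Itgav, Itgb5, Icam1 and Vcam1) at least 2-fold lower.

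Complement genes differed in both directions between these classes. C1qb stood at 2551 CPM (2527 to 2575) in members and 2878 CPM (2849 to 2908) in testis macrophages, and C1qc at 2715 CPM (2690.0 to 2739.6) in members and 3091 CPM (3061 to 3122) in testis macrophages. C4b stood at 3016 CPM (2990.0 to 3042) in members and 36.3 CPM (33.1 to 39.7) in testis macrophages (83.1-fold, 75.9 to 91.2), and Cfp at 1822 CPM (1802 to 1843) in members and 78.8 CPM (74.0 to 83.8) in testis macrophages (23.1-fold, 21.7 to 24.6). Of 14 complement genes, 7 were at least 2-fold higher in members and 2 (C1qa and C2) lower.

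Several receptor, iron and chemokine genes were lower in members than in testis macrophages. Mrc1 stood at 4.58 CPM (3.62 to 5.72) in members and 1594 CPM (1572 to 1616) in testis macrophages (348-fold, 279 to 441, lower in members). Cx3cr1, the fractalkine receptor, stood at 2.11 CPM (1.48 to 2.93) in members and 1533 CPM (1512 to 1555) in testis macrophages (725-fold, 524 to 1036, lower in members). Folr2 stood at 2.41 CPM (1.73 to 3.27) in members and 1021 CPM (1003 to 1038) in testis macrophages (424-fold, 312 to 591, lower in members). Slc40a1 stood at 0.176 CPM (0.0363 to 0.515) in members and 668 CPM (654 to 683) in testis macrophages, and 9 of 14 iron genes were at least 2-fold lower. The transcription factor gene Maf stood at 102 CPM (97.1 to 107) in members and 1691 CPM (1668 to 1713) in testis macrophages (16.6-fold, 15.8 to 17.5, lower in members). Ccl2 stood at 4.05 CPM (3.15 to 5.13) in members and 1257 CPM (1237 to 1276) in testis macrophages, and Ccl8 at 0.587 CPM (0.282 to 1.08) in members and 919 CPM (903 to 936) in testis macrophages. Ccl7 stood at 0.117 CPM in members and 474 CPM in testis macrophages, and Ccl12 at 0.117 CPM in members and 433 CPM in testis macrophages. Fcrls, Cd209f, Defb19 and Fxyd1 complete the 8 lower genes with the largest ratios.

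All 15 immediate early genes at 10 CPM or more were at least 2-fold lower in members than in testis macrophages. Fos stood at 15.2 CPM (13.4 to 17.2) in members and 4158 CPM (4123 to 4194) in testis macrophages (273-fold, 242 to 310.2, lower in members). Jun stood at 45.9 CPM (42.8 to 49.2) in members and 4159 CPM (4124 to 4194) in testis macrophages (90.6-fold, 84.4 to 97.3, lower in members). Il1b stood at 1.12 CPM in members and 163 CPM in testis macrophages, and Tnf at 0.939 CPM in members and 238 CPM in testis macrophages.

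The members' own rule applied to the testis library chose 518 barcodes, with a median of 6859 UMIs, and Csf1r had a UMI in all 518. Selp, found in 926 of 944 members at 530.0 CPM, was found in 1 of these 518 at 4.10 CPM (2.30 to 6.77). Timd4 stood at 556 CPM (545 to 567) in members and 213 CPM (198 to 228) in the 518, and Vsig4 at 689 CPM (677 to 702) in members and 336 CPM (317 to 355) in the 518. Csf1r stood at 609 CPM (597 to 621) in members and 1710.4 CPM (1668 to 1753) in the 518. Gata6 stood at 149 CPM (143 to 155) in members and 1.37 CPM (0.444 to 3.19) in the 518. Leydig cell markers summed to 2.17 CPM in members and 953 CPM in testis macrophages, and fibroblast markers to 2.70 CPM in members and 354 CPM in testis macrophages; their part in the differences was not tested.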

How the data were processed

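The deposited matrices hold UMI counts per gene and barcode, per the file headers, made with Cell Ranger 6.1.2 for both KO libraries and version 4 for the chimera library. Per the submitters' processing notes, Cell Ranger 6 and Seurat 4.2.1 were used with GRCm38.p6; how the matrices were filtered is not given in the sources used here. The KO cauda matrix held 41862286 UMIs in 3937 barcodes, the chimera matrix 5395856 in 301167 and the testis matrix 134795047 in 18108. Members, gene lists and comparisons were chosen with earlier results of these data known. Counts were summed per class and divided by the class total (Python 3.11.15, numpy 2.4.6, scipy 1.17.1, pandas 2.3.3, scikit-learn 1.9.0, matplotlib 3.10.9). No test was run, since each group is 1 library. A gene was counted as higher or lower past 4-fold at 50 CPM or more in either class, and within lists past 2-fold at 10 CPM or more. Named genes were the 15 higher and 10 lower with the largest ratios against the other barcodes, and 8 each way in the other comparisons, without mitochondrially encoded, ribosomal protein, Gm-numbered and Rik genes and the 8 genes of the rule; any gene of a list could also be named. The floor was 3 UMIs, or 0.176 CPM in members. Thinning to 1000 UMIs left out 2 members, 6 B barcodes and 6 testis macrophages. Doublet-like barcodes (99, of which 6 members) were left in, and left out in an alternative. Alternatives changed the filters, thresholds, totals and compared barcodes; leaving out the barcodes shared with the chimera matrix was chosen after seeing the data. Every per-sample column was used. The ratio and its interval were checked on drawn counts with known answers.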

Additional observations from a re-analysis of the deposited data

Results flagged for a closer look

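The rule made for the cauda members also chose 518 of 13662 passing barcodes of the KO testis, a library outside the rule; Selp had a UMI in 1 of them, and Gata6 stood at 149 CPM in members and 1.37 CPM in the 518. A further 33 KO cauda barcodes passed the macrophage part of the rule but held B genes at 0.05% of UMIs or more; Lyz2 stood at 39888 CPM in members and 21794 CPM in the 33, and Igkc at 60.1 CPM in members and 2458 CPM in the 33.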

How the results depend on the processing

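The 25 named genes against the other barcodes kept their direction under all 11 alternatives that changed the barcodes or totals. Their ratios moved by more than 1.5 times for 12 genes (at most 2.41 times) with the 5 markers at 0.10% or more, for 18 (at most 33.5 times, 13 under 4-fold) at 0.30%, for 18 (at most 17.3 times, 14 under 4-fold) with 0 UMIs of the B genes, for all 25 (at most 19.6 times) without the B barcodes, for Cxcl2 and Cxcl13 (at most 3.94 times) with 4 or more markers, for Cxcl13 (1.77 times) without doublet-like barcodes and for Sox5, Jchain and Cacna1e (at most 2.18 times) with barcodes weighted equally. Most alternatives left between 371 and 422 genes higher and between 136 and 282 lower, against 396 and 203 as reported. With the 5 markers at 0.30% or more, 427 members remained and 13 genes were higher. With 0 UMIs of the B genes, 530 members remained and 3 genes were higher. In both cases the macrophage barcodes that the stricter rule leaves out move into the compared class by construction. Totals without mitochondrially encoded and ribosomal protein genes gave 360 lower, and leaving out the B barcodes gave 9 higher. A minimum of 20 CPM gave 604 higher and 386 lower, a minimum of 100 CPM gave 251 higher and 121 lower, and 8-fold gave 217 higher. Of 48 counts over the gene lists, 36 changed without the B barcodes, 23 with those totals and 16 with barcodes weighted equally. With 1 library in each group, no spread between animals could be measured, and intervals cover counting error only. No paired analysis was possible because each group is 1 library and no result comes from a test.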
